A study of Mus musculus with 16 samples.

Results

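The 10 genes described here carry prolactin and growth hormone signals to the transcription factor STAT5 in mouse prostate. They are the receptors Prlr and Ghr, the kinase Jak2, the transcription factors Stat5a and Stat5b, the inhibitors Socs1, Socs2, Socs3 and Cish, and the survival gene Bcl2l1. They were taken by symbol for their place in the pathway, without a threshold on any measured value. All 10 are present among the 29535 genes of the deposited table, and all 10 passed the filter on low values that left 16895 genes for testing.

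Prolactin and growth hormone bind receptors that have no kinase activity of their own. Binding activates JAK2, which is held on the receptor's inner tail, and JAK2 phosphorylates STAT5A and STAT5B so that they pair, enter the nucleus and bind DNA. Cish and Socs2 are known targets of STAT5 whose products act back on the receptors, SOCS1 and SOCS3 restrain JAK kinases after many cytokines, and prolactin signalling through STAT5 is known to promote growth of the prostate epithelium.

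RNA from whole prostate was selected for poly-A tails and sequenced from TruSeq libraries on an Illumina HiSeq2000. All mice were 12 months old and of the strain hybrid 129/SvImJ and C57Bl/6J. They were wild type (+/+) or mutant (-/-) for 1 gene, and each genotype was given vehicle or finasteride, a blocker of the 5-alpha-reductases that make dihydrotestosterone from testosterone. This gave 3 libraries of wild type mice on vehicle, 5 of wild type mice on finasteride, 3 of mutant mice on vehicle and 5 of mutant mice on finasteride, 16 in all. How the mutant allele was made, and the dose, route and length of treatment, are not given in the sources used here. The labels do not say that each library came from a separate animal, so the p-values measure only the spread between these samples, which may be technical.

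STAT5 binds DNA at the 9 letters TTCNNNGAA, which read the same on both strands. These letters were searched in windows of 300 bases that start 250 bases before and end 50 bases after an annotated start site, taken from RefSeq on build GRCm38.p6. Of the 10 genes, 9 have such a window (16 windows in all), and 3 of them hold a match. Over the whole table of windows 8.3% of 32851 windows and 9.6% of 27025 genes hold one. The stretches with the matches in Prlr, Socs3 and Cish are shown because they hold the only matches among the windows of the 10 genes; each is 180 bases long, runs 5′ to 3′ on the gene's strand, and has the matches in capitals. They are chr15:10223726-10223905 on the + strand for Prlr, chr11:117969407-117969586 on the - strand for Socs3 and chr9:107296509-107296688 on the + strand for Cish.
Prlr: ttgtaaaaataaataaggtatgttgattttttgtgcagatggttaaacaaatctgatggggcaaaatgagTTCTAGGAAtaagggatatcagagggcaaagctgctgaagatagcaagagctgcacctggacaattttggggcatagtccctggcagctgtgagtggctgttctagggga
Socs3: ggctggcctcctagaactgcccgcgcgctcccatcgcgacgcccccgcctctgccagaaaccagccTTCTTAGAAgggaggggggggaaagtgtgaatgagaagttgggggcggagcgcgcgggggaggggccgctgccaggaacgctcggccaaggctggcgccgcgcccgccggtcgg
Cish: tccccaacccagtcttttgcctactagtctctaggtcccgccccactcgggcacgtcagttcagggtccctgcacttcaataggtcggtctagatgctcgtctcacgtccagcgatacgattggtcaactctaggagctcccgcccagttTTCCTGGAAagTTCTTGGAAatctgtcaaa
The Prlr match, TTCTAGGAA, begins 110 bases before the start site of 1 of the 3 windows of that gene, and the Socs3 match, TTCTTAGAA, begins 154 bases before the start site. Cish holds a pair of matches, TTCCTGGAA from the start site itself and TTCTTGGAA after a gap of 2 bases. Only 0.46% of all windows hold a pair or more. For Socs3 and Cish the end of the window was not found near the start of a protein-coding transcript of the GENCODE annotation, and Prlr was not checked. These start sites therefore rest on RefSeq alone. A match is a description of the sequence and says nothing of binding in these samples.

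Values below are normalised expression on a log2 scale, so a difference of 1 is a factor of 2. Values taken out of log2 summed to log2 totals of 24.07 to 24.16 in the 5 mutant libraries on finasteride and 24.31 to 24.55 in the rest. Between 9.6% and 31.2% of a library's total came from its 10 most abundant genes. Pbsn, the androgen-dependent secretory protein probasin, averaged 18.23 in wild type libraries on vehicle, 18.01 in wild type libraries on finasteride, 15.69 in mutant libraries on vehicle and 11.08 in mutant libraries on finasteride. On vehicle, 3 of its list of 5 for prostatic secretion were lower in the mutant and none was higher. With finasteride, other genes of the list did not follow Pbsn. In wild type, finasteride lowered 3 of the 5, and in mutant it raised 2 and lowered 1. Msmb averaged 16.07 and 10.94 in wild type, and 9.59 and 12.99 in mutant, on vehicle and finasteride. The summed luminal epithelial markers lay between 16.14 and 16.55 in every library, but single markers changed in opposite directions. Of the 8 luminal markers, 4 were lower and 3 higher in the mutant on finasteride. The summed markers of the seminal vesicle, a neighbouring gland, ranged from 9.40 to 21.68. In 5 libraries the profile was close to a weighted mixture of a pair from the same group, with a residual of 0.0665 to 0.0941 log2 units. They are library 3 of wild type on vehicle, library 4 of wild type on finasteride, library 3 of mutant on vehicle and libraries 3 and 4 of mutant on finasteride. Such libraries may not be independent of their pair, so errors and p-values over 16 libraries may be too small. Results are therefore given over 16 libraries, and where the call of a named gene was lost over the other 11 this is stated. Library 2 of each finasteride group lay farthest from the rest of its group, at a root mean square distance over all genes of 0.624 in wild type and 0.739 in mutant.

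Of the 10 genes, 6 changed with genotype on vehicle, 6 with finasteride in wild type prostate and 6 with finasteride in mutant prostate. On finasteride, 7 differed between genotypes. The receptor gene Prlr fell with finasteride in both genotypes, Jak2 and Cish were higher in mutant prostate on either treatment, and Ghr, Socs3 and Bcl2l1 fell with finasteride in wild type prostate but rose with it in mutant prostate. Socs2 did the opposite of these last genes. None of Ghr, Socs3, Bcl2l1 and Socs2 kept both finasteride calls over the 11 libraries that are not mixture-like. The wild type call of Prlr was also lost there. In these bulk samples, fewer cells of a type and less RNA per cell cannot be told apart.

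These counts stand beside a high background of changes over all genes. On vehicle, 31.8% of the tested genes differed between genotypes (14.3% higher and 17.5% lower in the mutant), beside 4 of the 10 higher and 2 lower. Finasteride changed 39.8% of the tested genes in wild type prostate (17.9% higher, 21.9% lower), beside 1 of the 10 higher and 5 lower. In mutant prostate it changed 48.6% (26.3% higher, 22.3% lower), beside 4 of the 10 higher and 2 lower. On finasteride, 63.7% differed between genotypes (33.9% higher, 29.7% lower in the mutant), beside 5 of the 10 higher and 2 lower. The finasteride effects of the genotypes differed from each other for 56.8% of the tested genes (30.2% higher, 26.6% lower in the mutant), beside 3 of the 10 higher and 2 lower. The shares among the 10 genes are near those of all genes for finasteride in mutant (6 of 10), genotype on finasteride (7 of 10) and the difference of effects (5 of 10). A median change of 0.20 over the 10 genes stood beside -0.002 over all genes for genotype on vehicle, and -0.41 stood beside -0.03 for finasteride in wild type. In the mutant the medians with finasteride were -0.09 and -0.002.

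Other scalings of the libraries moved the median change of all tested genes. With libraries scaled to equal totals it was -0.14 for finasteride in wild type, 0.26 for finasteride in mutant, 0.40 for genotype on finasteride and 0.37 for the difference of effects. With the medians of the libraries set equal, the last 3 were -0.14, -0.11 and -0.21, and under quantile normalisation the difference of effects had a median of -0.15. The split of the calls among the 10 genes moved with these. For finasteride in mutant, 4 higher and 2 lower became 5 and 1 with equal totals and 3 and 4 with equal medians. For finasteride in wild type, 1 higher and 5 lower became 2 and 4 under quantile normalisation and with equal medians. For genotype on finasteride, 5 higher and 2 lower became 5 and 1 under quantile normalisation and 7 and 1 with equal totals, and for the difference of effects 3 and 2 became 5 and 1 with equal totals and 3 and 4 with equal medians.

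Over the 11 libraries, in the same order of comparisons, 9.06%, 8.55%, 20.3%, 41.1% and 29.4% of all tested genes passed. Of the 10 genes, 3 of 6 calls were kept for genotype on vehicle (Ghr, Jak2 and Cish), and 1 of 6 for finasteride in wild type (Socs2). For finasteride in mutant 3 of 6 were kept (Prlr, Socs1 and Socs3), and for genotype on finasteride 5 of 7 (Jak2, Socs2, Socs3, Cish and Bcl2l1). For the difference of effects 4 of 5 were kept, all but Stat5a. None of the 10 genes gained a call. For finasteride in wild type, 1 of the 10 thus stood beside 8.55% of all tested genes, near that background.

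**Figure D1:**
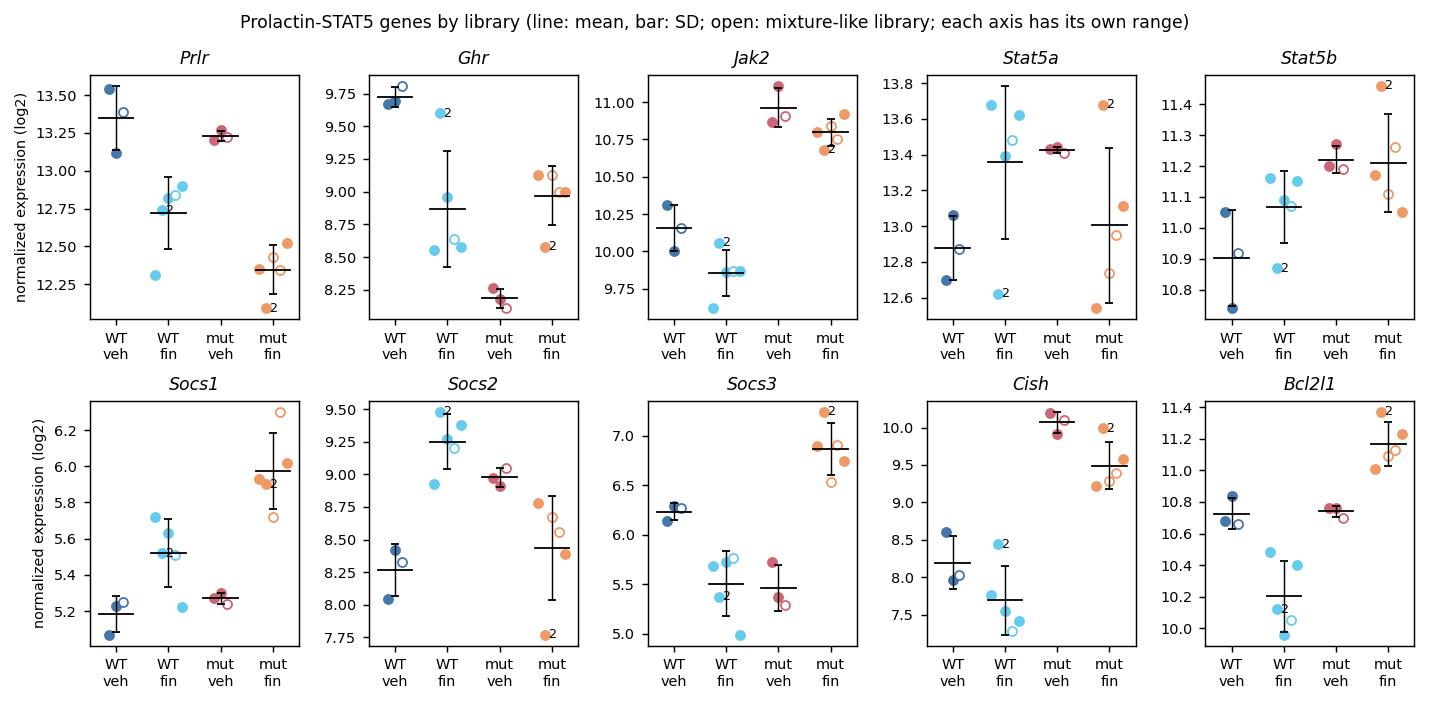
Normalised expression (log2, vertical axes, each with its own range) of the 10 genes in the 16 libraries by group, with WT for wild type, mut for mutant, veh for vehicle and fin for finasteride; points are libraries, lines are group means, bars are SDs, open points are the 5 mixture-like libraries and the digit marks library 2 of the finasteride groups. Cish lies between 9.22 and 10.19 in the mutant libraries and between 7.28 and 8.60 in the wild type libraries.

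Prlr encodes the prolactin receptor. Its value was 13.54, 13.12 and 13.39 in the wild type libraries on vehicle and 13.20, 13.27 and 13.22 in the mutant libraries on vehicle. On finasteride it was 12.31, 12.74, 12.82, 12.84 and 12.90 in wild type and 12.35, 12.09, 12.43, 12.34 and 12.52 in mutant libraries. Every library on finasteride lay below every library on vehicle, and the genotypes overlapped on each treatment. Prlr fell by 0.63 ± 0.13 log2 units (moderated standard error, n = 5 against 3) with finasteride in wild type prostate, adjusted p = 0.00179 in the limma fit over all tested genes. In mutant prostate Prlr also fell, at -0.89 ± 0.13 (adjusted p = 6.05e-05), or 0.541 times the vehicle level. The difference between these effects, -0.26 ± 0.18, did not pass (adjusted p = 0.244); it turned to 0.07 under quantile normalisation and 0.11 under equal totals, and passed with equal medians (-0.46, adjusted p = 0.0345) and without library 1 of wild type on finasteride (-0.36, adjusted p = 0.0435). The genotype difference of Prlr on vehicle did not pass (-0.12 ± 0.14, 95% interval -0.43 to 0.19, adjusted p = 0.573). On finasteride Prlr was lower in the mutant by a log2 change of -0.38 ± 0.11 (adjusted p = 0.00855). That call was lost over the 11 libraries (adjusted p = 0.0996) and under quantile normalisation (-0.17, adjusted p = 0.235), and with equal totals the value of Prlr was 0.005 (adjusted p = 0.973). Over the 11 libraries the wild type effect was -0.64 (adjusted p = 0.0624).

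Ghr encodes the growth hormone receptor, which signals through JAK2 and STAT5 in the same way. It was 9.67, 9.69 and 9.81 in wild type libraries on vehicle against 8.26, 8.18 and 8.11 in mutant libraries on vehicle. With finasteride it was 8.55, 9.60, 8.96, 8.64 and 8.58 in wild type and 9.13, 8.58, 9.13, 9.0 and 9.0 in mutant libraries. The vehicle groups lay far apart, with all 10 finasteride libraries between them. On vehicle Ghr was lower in the mutant by -1.54 ± 0.22 (adjusted p = 8.05e-05), or 0.345 times the wild type level. Finasteride lowered it in wild type prostate by -0.86 ± 0.19 (adjusted p = 0.00312) and raised it in mutant prostate by 0.78 ± 0.19 (adjusted p = 0.00367). The effects of finasteride differed by 1.64 ± 0.27 (adjusted p = 0.000146). On finasteride the genotypes did not differ past the threshold (0.10 ± 0.17, 95% interval -0.25 to 0.46, adjusted p = 0.602). Library 2 of wild type on finasteride, at 9.60, stood above the other 4, which lay between 8.55 and 8.96, and without it the genotype difference of Ghr on finasteride was 0.29 (adjusted p = 0.0337). That difference was 0.48 with equal totals (adjusted p = 0.0251), and -0.02 both with equal medians and over the 11 libraries. Over 11 libraries the effects of finasteride had adjusted p = 0.0952 in wild type and 0.111 in mutant.

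Jak2 encodes the kinase that both receptors carry. Wild type libraries on vehicle had values of 10.306, 10.005 and 10.161, and wild type libraries on finasteride had 9.62, 10.06, 9.86, 9.87 and 9.87. Mutant libraries on vehicle had 10.87, 11.11 and 10.91, and mutant libraries on finasteride had 10.80, 10.68, 10.84, 10.75 and 10.92. All 8 mutant libraries lay above all 8 wild type libraries, with 10.68 as the lowest mutant and 10.31 as the highest wild type value. The summed markers of the basal epithelium, led by Krt15, separated the genotypes in the same way, at 12.21 to 12.82 in mutant and 11.49 to 12.0 in wild type libraries. Of the 5 basal markers, 3 were higher in the mutant on vehicle, and 4 were higher and 1 (Krt14) lower on finasteride. Their part in the Jak2 and Cish values was not tested. The genotype difference was 0.80 ± 0.11 on vehicle (1.75-fold, adjusted p = 4.59e-05) and 0.94 ± 0.08 on finasteride (1.92-fold, adjusted p = 1.22e-07). Of the variance of Jak2 over the 16 libraries, 94.2% lay between groups, the most of the 10 genes. Finasteride lowered Jak2 in wild type prostate by -0.30 ± 0.09 (adjusted p = 0.0196), a call lost over 11 libraries (adjusted p = 0.178), with the median of each library set equal (0.0523), in the fit on the wild type groups alone (0.0548) and without library 1 or library 3 of wild type on vehicle (0.118 and 0.0593). In the mutant, finasteride gave -0.16 ± 0.09 (adjusted p = 0.169). The sign of that Jak2 value turned under equal totals (0.09) and under quantile normalisation (0.01), while with equal medians it was -0.30 and passed (adjusted p = 0.0122). The effects of finasteride on Jak2 differed by 0.14 ± 0.13 (adjusted p = 0.385), a value that passed under quantile normalisation (0.36, adjusted p = 0.0377) and equal totals (0.51, adjusted p = 0.00603) and was -0.07 with equal medians.

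Stat5a encodes 1 of the pair of STAT5 proteins and is the one best known for its part in prolactin responses. It was 12.70, 13.06 and 12.87 in wild type libraries on vehicle and 13.43, 13.44 and 13.41 in mutant libraries on vehicle. On finasteride it was 13.68, 12.62, 13.39, 13.48 and 13.62 in wild type and 12.54, 13.68, 12.74, 12.95 and 13.11 in mutant libraries. The vehicle groups did not overlap, and library 2 lay far from the other 4 in both finasteride groups, in opposite directions. The vehicle difference of 0.55 ± 0.27 did not pass over all 16 libraries (adjusted p = 0.127). It passed when the fit used the vehicle libraries alone (adjusted p = 0.00196) or left out both libraries 2 of the finasteride groups (adjusted p = 0.00361). Both of these fits kept the mixture-like library 3 of each vehicle group. Over the 11 libraries the vehicle difference was 0.56 and did not pass (adjusted p = 0.411). The fit over 16 libraries uses 1 estimate of the spread of a gene for all groups. The finasteride effect on Stat5a was 0.48 ± 0.24 in wild type (adjusted p = 0.119) and -0.42 ± 0.24 in mutant (adjusted p = 0.154). Without library 2 of the group concerned these were 0.67 (adjusted p = 0.0124) and -0.59 (adjusted p = 0.0240). The genotype difference on finasteride was -0.35 ± 0.21 (adjusted p = 0.147) over all libraries, -0.70 (adjusted p = 6.69e-05) without both libraries 2, and 0.03 (adjusted p = 0.906) with equal totals. The effects of finasteride on Stat5a differed by -0.90 ± 0.34 (adjusted p = 0.0316). That call was lost over 11 libraries (-0.77, adjusted p = 0.246), under quantile normalisation (-0.60, adjusted p = 0.0721), under equal totals (-0.53, adjusted p = 0.20), and in 10 of 16 fits that each left out 1 library. Those 10 fits left out libraries 1 or 3 of wild type on vehicle, libraries 1, 4 or 5 of wild type on finasteride, any library of mutant on vehicle, or libraries 1 or 3 of mutant on finasteride, with adjusted p from 0.0506 to 0.0772.

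Stat5b encodes the close relative of STAT5A that is best known for growth hormone responses. It ranged over only 0.72 log2 units, from 10.74 to 11.46, the narrowest range of the 10 genes. It was 11.05, 10.74 and 10.92 in wild type and 11.20, 11.27 and 11.19 in mutant libraries on vehicle, with no overlap. The genotype difference on vehicle was 0.32 ± 0.11 (1.25-fold, adjusted p = 0.0310). It did not pass over 11 libraries (adjusted p = 0.223), without the filter on low values (0.0522), under quantile normalisation (0.0678), or without library 2 or 3 of wild type or any 1 library of mutant on vehicle (0.0633 to 0.134). On finasteride Stat5b was 11.16, 10.87, 11.09, 11.07 and 11.15 in wild type and 11.17, 11.46, 11.11, 11.26 and 11.05 in mutant libraries, and the groups overlapped. Its finasteride effect was 0.17 ± 0.09 in wild type (adjusted p = 0.175) and -0.01 ± 0.09 in mutant (adjusted p = 0.925), and the genotype difference on finasteride was 0.14 ± 0.08 (adjusted p = 0.145). With equal totals the last pair of values was 0.24 (adjusted p = 0.0322) and 0.52 (adjusted p = 2.21e-05), and under quantile normalisation 0.15 (adjusted p = 0.169) and 0.29 (adjusted p = 0.00293). The effects of finasteride on Stat5b differed by -0.18 ± 0.13 (adjusted p = 0.268), which passed with equal medians (-0.38, adjusted p = 0.0385) and without both libraries 2 (-0.29, adjusted p = 0.0189), and was 0.19 with equal totals and 0.05 under quantile normalisation. Without both libraries 2 the finasteride effect on Stat5b in wild type was 0.22 (adjusted p = 0.0188). Stat5a and Stat5b share sequence, and 265 of 4199 distinct stretches of 100 bases in Stat5a transcripts (6.31%) also occur in Stat5b transcripts of the GENCODE annotation, so reads from those stretches could have been counted for either.

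Cish encodes an inhibitor that STAT5 induces and that binds the activated receptors. Its values were 8.60, 7.96 and 8.03 in wild type libraries on vehicle and 7.77, 8.44, 7.55, 7.28 and 7.42 in wild type libraries on finasteride. In mutant libraries they were 10.19, 9.92 and 10.10 on vehicle and 9.22, 9.99, 9.28, 9.39 and 9.58 on finasteride. All mutant libraries lay above all wild type libraries, the same separation that Jak2 and the summed basal epithelial markers showed. Cish was higher in the mutant by 1.88 ± 0.26 on vehicle (3.67-fold, adjusted p = 7.52e-05) and by 1.81 ± 0.20 on finasteride (3.5-fold, adjusted p = 1.82e-06), the widest genotype differences among the 10 genes on either treatment. The finasteride effect did not pass in wild type (-0.51 ± 0.23, adjusted p = 0.0956) or in mutant (-0.58 ± 0.23, adjusted p = 0.0522). Without library 2 of the finasteride group, the highest of its group in both genotypes, it passed in wild type (-0.69, adjusted p = 0.00813) and in mutant (-0.70, adjusted p = 0.0160). The mutant effect of finasteride on Cish also passed with equal medians (-0.71, adjusted p = 0.0188), with a pseudocount of 8 (-0.57, adjusted p = 0.0482) and in the fit on the mutant groups alone (adjusted p = 0.0173). The difference between the finasteride effects was -0.07 ± 0.33 (95% interval -0.78 to 0.63, adjusted p = 0.865). It was 0.12 without library 2 of wild type on finasteride and 0.30 with equal totals.

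Socs2 encodes another inhibitor that STAT5 induces and that limits growth hormone signalling. It was 8.04, 8.42 and 8.33 in wild type libraries on vehicle and 8.93, 9.48, 9.27, 9.20 and 9.38 in wild type libraries on finasteride, with no overlap. In mutant libraries it was 8.97, 8.91 and 9.05 on vehicle and 8.78, 7.77, 8.67, 8.56 and 8.39 on finasteride, again with no overlap but in the other order. Socs2 rose with finasteride in wild type prostate by 0.99 ± 0.18 (1.99-fold, adjusted p = 0.000883) and fell by 0.54 ± 0.18 in mutant prostate (adjusted p = 0.0237). The effects differed by -1.53 ± 0.26 (adjusted p = 0.000168). On vehicle Socs2 was higher in the mutant by 0.71 ± 0.20 (adjusted p = 0.0152), and on finasteride it was lower by -0.82 ± 0.16 (adjusted p = 0.000361). The vehicle call was lost over 11 libraries (adjusted p = 0.162), without library 1 of wild type (0.0645) and without library 3 of mutant (0.0529). The fall in mutant prostate was lost over 11 libraries (adjusted p = 0.122), with equal totals (-0.28, adjusted p = 0.239), in the fit on the mutant groups alone (0.0503) and without library 1 or 3 of mutant on vehicle (0.0584 and 0.0803).

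Socs3 encodes an inhibitor best known for its rise after IL6 family cytokines. Wild type libraries had values of 6.14, 6.29 and 6.27 on vehicle and 5.68, 5.37, 5.72, 5.76 and 4.99 on finasteride. Mutant libraries had 5.72, 5.37 and 5.29 on vehicle and 6.90, 7.24, 6.53, 6.91 and 6.74 on finasteride. The mutant libraries on finasteride were all above 6.29, the highest value of any other library. Socs3 rose with finasteride in mutant prostate by 1.40 ± 0.19 (2.65-fold, adjusted p = 3.22e-05) and fell in wild type prostate, -0.73 ± 0.19 (adjusted p = 0.00787). The effects differed by 2.13 ± 0.27 (4.38-fold, adjusted p = 1.41e-05), the widest such difference of the 10 genes. On finasteride the mutant was higher by 1.36 ± 0.17 (adjusted p = 4.25e-06), and on vehicle it was lower, -0.77 ± 0.21 (adjusted p = 0.0123). The fall in wild type was lost over 11 libraries (adjusted p = 0.0759) and under quantile normalisation (-0.31, adjusted p = 0.292). The vehicle difference was lost over 11 libraries (adjusted p = 0.182), under quantile normalisation (-0.43, adjusted p = 0.20) and without library 3 of mutant (adjusted p = 0.0543). The summed macrophage markers, led by Csf1r, moved with Socs3. They lay between 11.57 and 12.07 in the mutant libraries on finasteride, between 11.08 and 11.36 in wild type libraries on vehicle, and between 10.37 and 11.03 in the other groups. All 6 markers of that list were higher with finasteride in mutant prostate and 4 of 6 were lower with it in wild type prostate, and their part in the Socs3 values was not tested.

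Socs1 encodes an inhibitor of JAK kinases that interferons and other cytokines induce. It was 5.07, 5.23 and 5.25 in wild type and 5.27, 5.30 and 5.24 in mutant libraries on vehicle. On finasteride Socs1 was 5.72, 5.52, 5.63, 5.51 and 5.22 in wild type and 5.93, 5.90, 5.72, 6.30 and 6.02 in mutant libraries. The mutant libraries on finasteride were at or above the highest of the others, and the other groups overlapped. Socs1 rose with finasteride in mutant prostate by 0.70 ± 0.15 (1.63-fold, adjusted p = 0.00128) and was higher in the mutant on finasteride by 0.46 ± 0.13 (adjusted p = 0.00628). Both depended on the scaling of the libraries. Under quantile normalisation the first was 0.11 (adjusted p = 0.594) and the second turned to -0.21 (adjusted p = 0.207). The second was also lost over 11 libraries (adjusted p = 0.0735). In wild type prostate the finasteride effect on Socs1 was 0.34 ± 0.15 (adjusted p = 0.0834), and it passed under quantile normalisation (0.79, adjusted p = 0.00225), with equal medians (0.41, adjusted p = 0.0397), with no trend of the variance (0.0447) and without library 5 of wild type on finasteride (0.0398). The difference of the finasteride effects was 0.37 ± 0.21 (adjusted p = 0.150). It was 0.74 with equal totals (adjusted p = 0.0130) and -0.67 under quantile normalisation (adjusted p = 0.0230), and no direction is given for it. Genotype on vehicle gave 0.09 ± 0.17 (adjusted p = 0.728). The summed T and NK cell markers, led by Cd8a, were 8.89 to 9.59 in mutant libraries on finasteride and 6.02 to 7.83 in all others. The summed B and plasma cell markers, led by Igj, were 11.07 to 11.65 and 5.99 to 7.84. All 6 and all 5 of these markers were higher with finasteride in mutant prostate, and their part in the Socs1 values was not tested.

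Bcl2l1 encodes BCL-XL, a protein that protects cells from apoptosis and a reported target of STAT5. It was 10.68, 10.84 and 10.66 in wild type and 10.76, 10.76 and 10.70 in mutant libraries on vehicle, which overlapped. On finasteride it was 10.48, 10.12, 9.96, 10.05 and 10.40 in wild type and 11.01, 11.37, 11.09, 11.13 and 11.23 in mutant libraries. The finasteride groups lay on opposite sides of the vehicle groups, without overlap. The genotype difference of Bcl2l1 on vehicle did not pass (0.01 ± 0.12, 95% interval -0.25 to 0.27, adjusted p = 0.951). Finasteride lowered it in wild type prostate by -0.52 ± 0.11 (adjusted p = 0.00203) and raised it in mutant prostate by 0.43 ± 0.11 (adjusted p = 0.00478). On finasteride Bcl2l1 was 1.95-fold higher in the mutant (0.96 ± 0.10, adjusted p = 4.79e-07), and the effects differed by 0.95 ± 0.16 (adjusted p = 0.000125). The separate effects of finasteride were lost over 11 libraries (adjusted p = 0.0624 in wild type and 0.0783 in mutant), and the rise in the mutant was lost with equal medians (0.29, adjusted p = 0.0530).

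**Figure D2:**
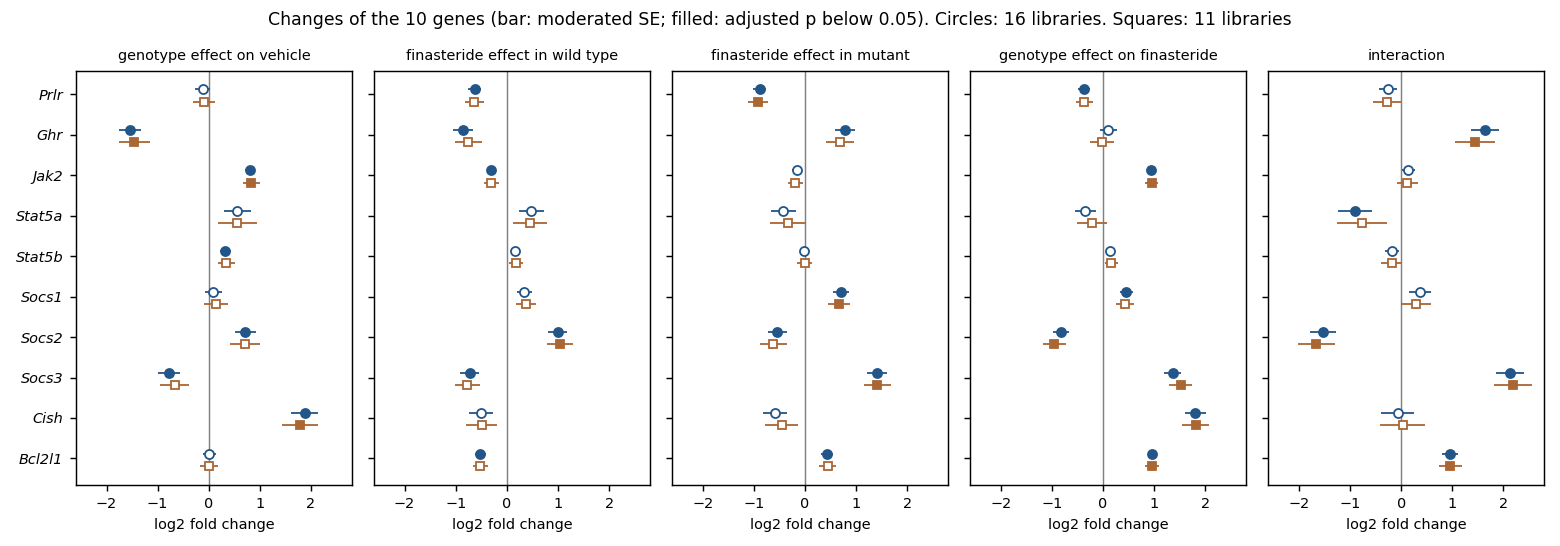
Log2 fold changes (horizontal axes) of the 10 genes in each comparison, with bars for the moderated standard error, circles for the fit on 16 libraries, squares for the fit on 11 libraries and filled symbols for an adjusted p below 0.05. Cish and Jak2 are filled for genotype on both treatments, and the interaction is widest for Socs3 at 2.13; directions that turn under another scaling are those of Bcl2l1 (genotype on vehicle), Jak2 and Stat5b (finasteride in mutant), Prlr, Ghr, Stat5a and Socs1 (genotype on finasteride) and Prlr, Jak2, Stat5b, Socs1 and Cish (interaction).

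The order of the group means differed from gene to gene. For Prlr the order from low to high was mutant on finasteride (12.35), wild type on finasteride (12.72), mutant on vehicle (13.23) and wild type on vehicle (13.35), and only the step between treatments had ranges that did not overlap. For Cish and Jak2 it was wild type on finasteride, wild type on vehicle, mutant on finasteride and mutant on vehicle, with a gap only between genotypes. For Bcl2l1 the vehicle groups (10.72 and 10.74) overlapped in the middle, with wild type on finasteride (10.20) below and mutant on finasteride (11.17) above. Neighbouring groups of Stat5a and of Stat5b overlapped at every step. Of the variance over the 16 libraries, 33.2% lay between groups for Stat5a and 51.8% for Stat5b, against 74.6% for Socs2 to 90.6% for Cish in the rest apart from Jak2.

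Single libraries stood apart from their group for several of the genes. Library 2 of mutant on finasteride lay outside the range of the other 4 of its group for 9 of the 10 genes, library 1 of wild type on finasteride for 8, and library 2 of wild type on finasteride for 6. The other 7 finasteride libraries did so for 1 to 4 of the genes. For every gene the lowest and the highest library of a group lie outside by definition, so such counts arise in any group. A mixture-like library tends to lie between its pair, and no share over all genes was taken. Over the 10 genes the root mean square distance from the rest of the group was 0.552 for library 2 of wild type on finasteride and 0.502 for library 2 of mutant on finasteride, beside 0.105 to 0.302 for the other libraries. Stat5a, Ghr and Cish set library 2 of wild type apart most. The adipocyte markers moved with it: their sum was 10.62 in that library and 6.42 to 7.76 in the other 4 of the group, and their part in the values was not tested. Without both libraries 2, the numbers of the 10 genes called were 7 for genotype on vehicle, 9 for finasteride in wild type, 8 for finasteride in mutant, 9 for genotype on finasteride and 6 for the difference of effects. In the same order, 42%, 52.4%, 56.6%, 69.5% and 64.9% of all tested genes were then called, so the background rose too. This alternative was chosen after seeing the data.

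**Figure D3:**
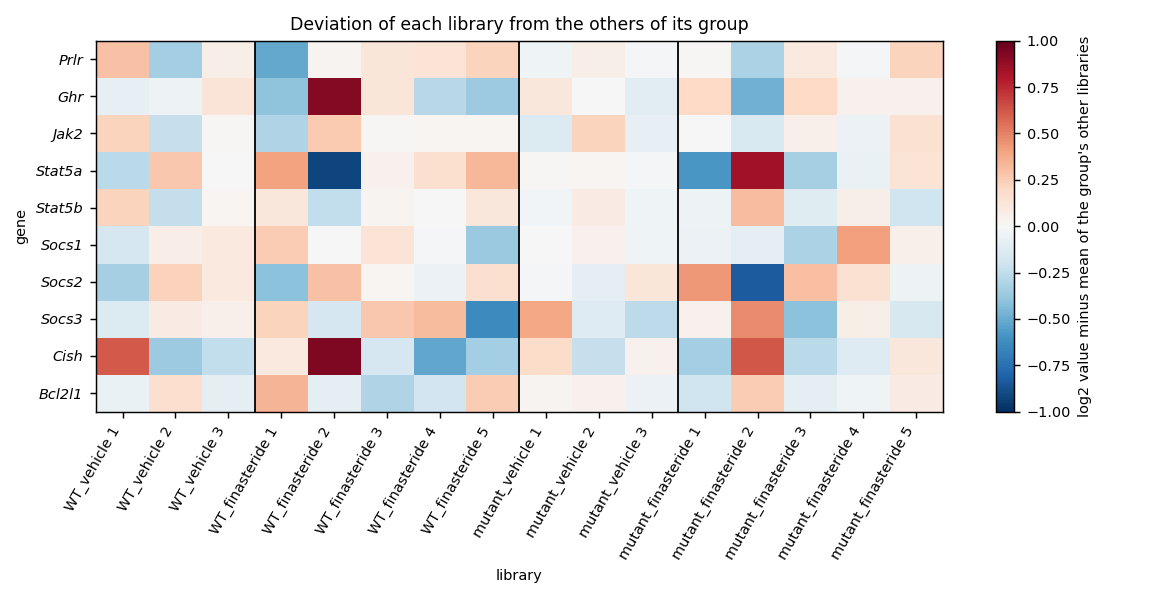
Deviation of each library (columns, by group) from the mean of the other libraries of its group, in log2 units by colour, for the 10 genes (rows). Red and blue are deepest in library 2 of the wild type and mutant finasteride groups, with Stat5a low in the first (12.62) and high in the second (13.68).

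Over the 16 libraries some of the 10 genes followed each other, which is given as a description since all values come from the same libraries and groups. Cish and Jak2 had a Pearson r of 0.94, Bcl2l1 and Socs3 of 0.75, Socs1 and Prlr of -0.88, Socs3 and Socs2 of -0.77, Ghr and Stat5a of -0.76, and Stat5a and Stat5b of 0.48. Among all tested genes, those most like Cish were B3gat1 (0.982), Khdc1a (0.973) and Cerk (0.970). Jak2 was most like Nedd4l (0.981), Trp63 (0.976), the basal cell transcription factor, and Rwdd3 (0.976). The genes most like Stat5a were Rpl7a (0.980), Higd2a (0.974) and Rpl41 (0.959), Rpl7a and Rpl41 being genes of the cytosolic ribosome. Socs3 was most like Epsti1 (0.960), Nrros (0.956) and Tnfsf13b (0.953), and Socs1 most like Relb (0.899), Nab2 (0.878) and B3gnt5 (0.873). For Prlr they were Sec62 (0.962), Psme4 (0.961) and Scamp1 (0.957), and for Ghr Sytl5 (0.965), Mctp2 (0.961) and Gstm6 (0.961). Bcl2l1 had Nrm (0.965), Sprr2a3 (0.963) and Adh1 (0.959), Socs2 had Pdha1 (0.932) first, and Stat5b had Gba2 (0.895), U2af1l4 (0.883) and Fam109a (0.881).

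The rest of the pathway was read from a list of 74 other genes, of which 57 passed the filter on low values. The 17 that did not include the hormone genes Prl and Gh, which the pituitary makes, the milk protein genes Csn1s1, Csn2, Csn3 and Wap, and the ligand genes Epo, Csf2, Il2, Il3, Il5, Il6, Osm, Ifng and Tnfsf11. Of the 57, 20 differed between genotypes on vehicle (4 higher, 16 lower in the mutant) and 30 changed with finasteride in wild type prostate (12 higher, 18 lower). In mutant prostate 36 changed with finasteride (26 higher, 10 lower), 45 differed between genotypes on finasteride (29 higher, 16 lower), and for 40 the effects of finasteride differed (27 higher, 13 lower). As shares of the 57 these were 35.1%, 52.6%, 63.2%, 78.9% and 70.2%, beside 31.8%, 39.8%, 48.6%, 63.7% and 56.8% of all tested genes. Over 11 libraries the counts were 8, 4, 17, 33 and 22, or 14.0%, 7.02%, 29.8%, 57.9% and 38.6%, beside 9.06%, 8.55%, 20.3%, 41.1% and 29.4% of all tested genes. For finasteride in wild type the pathway share thus lay above the background over 16 libraries and below it over 11. The pathway median was -0.16 beside -0.002 over all genes for genotype on vehicle, -0.13 beside -0.03 for finasteride in wild type, and 0.30 beside -0.002 for finasteride in mutant. Without library 1 or without library 3 of wild type on vehicle, the 30 were 17. With equal totals the splits of the pathway genes were 3 higher and 24 lower for finasteride in wild type, 35 and 4 for finasteride in mutant, 40 and 6 for genotype on finasteride and 33 and 3 for the difference of effects. With equal medians, finasteride in mutant gave 20 and 16 and the difference of effects 23 and 19, and for genotype on vehicle quantile normalisation gave 7 higher and 15 lower.

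Of the 13 tested receptor genes that also signal to STAT5, 8 differed between genotypes on vehicle (3 higher, 5 lower), or 61.5% beside 31.8% of all tested genes. Il2rg, the common gamma chain of lymphocyte cytokine receptors, was higher in the mutant by 3.14 ± 0.29 (adjusted p = 2e-06), and Lepr, the leptin receptor, was lower, -1.41 ± 0.20 (adjusted p = 7.23e-05). Finasteride changed 7 of the 13 in wild type (1 higher, 6 lower) and 11 in mutant prostate (8 higher, 3 lower), or 53.8% and 84.6% beside 39.8% and 48.6% of all tested genes. For genotype on vehicle and finasteride in wild type and in mutant, 3, 2 and 8 of the 13 passed over 11 libraries. These shares of 23.1%, 15.4% and 61.5% stood beside 9.06%, 8.55% and 20.3% of all tested genes. Csf2rb2 and Csf2rb, beta chains of receptors for IL3 family cytokines, fell in wild type (-1.09 ± 0.21 and -1.54 ± 0.24) and rose in mutant prostate (2.27 ± 0.21 and 1.63 ± 0.24). The wild type call of Csf2rb2 was lost over 11 libraries (adjusted p = 0.0605). Csf2rb and Csf2rb2 are near-identical copies whose reads could have been split between them. Lepr moved the same ways, -0.92 ± 0.17 and 1.10 ± 0.17, as Ghr did. Of the 3 tested ligand genes, Il15 fell with finasteride in mutant prostate (-0.96 ± 0.13) and Thpo in wild type (-0.72 ± 0.25), the latter a call lost over 11 libraries (adjusted p = 0.337). Leukocyte markers moved with Csf2rb and Csf2rb2 under finasteride, but Il2rg went the other way in mutant prostate. Its mean there was 8.68 on vehicle and 7.36 on finasteride. Of the 6 macrophage markers, 4 were lower with finasteride in wild type and all 6 higher with it in mutant prostate, as were all 6 T and NK cell and all 5 B and plasma cell markers. In wild type prostate 2 of the 6 T and NK cell and 3 of the 5 B and plasma cell markers were lower with finasteride. On vehicle 3 of the 6 T and NK cell markers were higher in the mutant and none was lower. All 6 macrophage markers and 2 of the 5 B and plasma cell markers were lower in the mutant on vehicle. Their part in the receptor values was not tested.

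Among the 12 tested genes reported as STAT5 targets, 3 differed between genotypes on vehicle, all lower in the mutant, a share of 25% that lies below the 31.8% of all tested genes. Over 11 libraries 2 of the 12 passed, and this share of 16.7% lies above the 9.06% of all tested genes. Igf1, the growth factor that growth hormone induces, averaged 9.90 ± 0.40 (SD, n = 3) in wild type on vehicle, 8.04 ± 0.12 (n = 5) in wild type on finasteride, 8.14 ± 0.18 (n = 3) in mutant on vehicle and 9.40 ± 0.34 (n = 5) in mutant on finasteride. It was lower in the mutant on vehicle by -1.75 ± 0.21 (adjusted p = 1.86e-05), fell in wild type with finasteride (-1.86 ± 0.19, adjusted p = 1.46e-05) and rose in mutant with it (1.25 ± 0.19, adjusted p = 6.61e-05). Igfals, whose product carries IGF1 in blood, moved the same ways at -2.42 ± 0.38, -2.63 ± 0.34 and 1.11 ± 0.34, and its rise in the mutant was lost over 11 libraries (adjusted p = 0.181). Finasteride changed 7 of the 12 in wild type (3 higher, 4 lower) and 9 in mutant prostate, all 9 higher, or 58.3% and 75% beside 39.8% and 48.6% of all tested genes. These became 2 and 5 of the 12 over 11 libraries, or 16.7% and 41.7% beside 8.55% and 20.3% of all tested genes. Ccnd1, the cell cycle gene cyclin D1, rose in the mutant by 1.47 ± 0.23 (adjusted p = 0.000101), and Bcl6, a repressor, by 0.80 ± 0.12 (adjusted p = 6.57e-05). On finasteride 10 of the 12 differed between genotypes (8 higher, 2 lower), or 83.3% beside 63.7% of all tested genes, with the lowest p for Id2 at 1.36 ± 0.12 and Ccnd1 at 2.0 ± 0.20. Between groups, the sum of the adipocyte markers, led by Fabp4, shifted in the direction of Ghr, Igf1 and Lepr. It did so for genotype on vehicle and for finasteride in each genotype. On finasteride all 7 adipocyte markers were higher in the mutant, as were the means of Igf1 and Lepr. Ghr did not differ past the threshold there (adjusted p = 0.602 in the limma fit). The adipocyte sum was 11.21 to 11.78 in wild type on vehicle and 6.42 to 10.62 in wild type on finasteride. In mutant libraries it was 9.11 to 9.83 on vehicle and 10.92 to 11.56 on finasteride. All 7 adipocyte markers fell with finasteride in wild type and 3 of 7 rose in mutant prostate. On vehicle 2 of the 7 were lower in the mutant and none was higher. The fibroblast sums, led by Dcn, were 14.38 to 14.55, 13.48 to 14.00, 13.55 to 13.73 and 13.91 to 14.25 in the same order. Within groups the adipocyte sum did not always go with these genes. Igf1 spanned only 7.86 to 8.14 in wild type on finasteride, where the adipocyte sum spanned 6.42 to 10.62. In mutant on finasteride, library 2 had the highest adipocyte sum (11.56) but the lowest Ghr (8.58). The part of these marker lists in these values was not tested.

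Among the other JAK and STAT genes, 2 of 8 differed between genotypes on vehicle, both lower (Stat2, -0.38 ± 0.10, and Jak1, -0.36 ± 0.11), and all 8 did on finasteride (5 higher, 3 lower). These shares, 25% and 100%, stood beside 31.8% and 63.7% of all tested genes. Over 11 libraries the vehicle calls of Stat2 and Jak1 were lost (adjusted p = 0.125 and 0.166). Jak3, the kinase of lymphocyte cytokine receptors, was higher in the mutant on finasteride by 1.76 ± 0.15 (adjusted p = 8.01e-08) and Stat3 by 0.50 ± 0.06 (adjusted p = 1.47e-06), both in the direction of Jak2. On finasteride the summed T and NK cell markers were 8.89 to 9.59 in mutant and 6.02 to 6.83 in wild type libraries, and the summed B and plasma cell markers 11.07 to 11.65 and 5.99 to 6.81. All 6 and all 5 of these markers were higher in the mutant, and their part in the Jak3 value was not tested. Of the 8 tested genes of the IL6 family and interferon gamma, 4 were lower in the mutant on vehicle and none was higher (50% beside 31.8% of all tested genes), with Il6ra at -0.97 ± 0.12 (adjusted p = 2.24e-05). Only 1 of the 8 passed on vehicle over 11 libraries, or 12.5% beside 9.06% of all tested genes. Il6st and Osmr, receptor chains for IL6 family cytokines, rose with finasteride in mutant prostate by 0.96 ± 0.15 and 0.76 ± 0.14. Ifngr1, a chain of the interferon gamma receptor, was lower in the mutant on finasteride by -1.20 ± 0.07 (adjusted p = 2.91e-09). Of the 13 other inhibitors, 3 differed on vehicle (1 higher, 2 lower) and 7 on finasteride (1 higher, 6 lower), or 23.1% and 53.8%, both below the 31.8% and 63.7% of all tested genes. Over 11 libraries the vehicle share of these inhibitors was 15.4%, above the 9.06% of all tested genes. Their share on finasteride was also 15.4% there, below the 41.1% of all tested genes. Pias2, which inhibits STATs by sumoylation, was lower in the mutant by -0.91 ± 0.09 on vehicle (adjusted p = 4.78e-06) and by -1.33 ± 0.07 on finasteride (adjusted p = 8.28e-10), in the direction opposite to Cish.

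**Figure D4:**
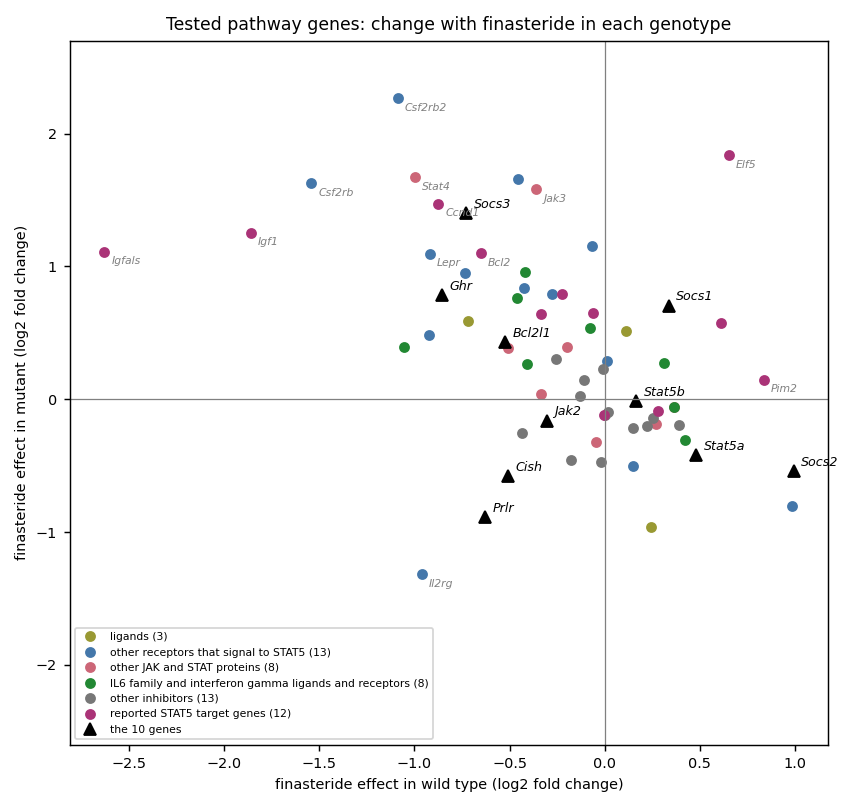
Change with finasteride in wild type prostate (horizontal axis) against change with finasteride in mutant prostate (vertical axis), both as log2 fold changes, for the 10 genes (black triangles) and the 57 tested genes of the pathway list (circles, coloured by role with the number in each). Ghr, Socs3 and Bcl2l1 lie at the upper left with Igf1 and Lepr, and Prlr and Cish at the lower left; the wild type and mutant effects share no library.

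**Figure D5:**
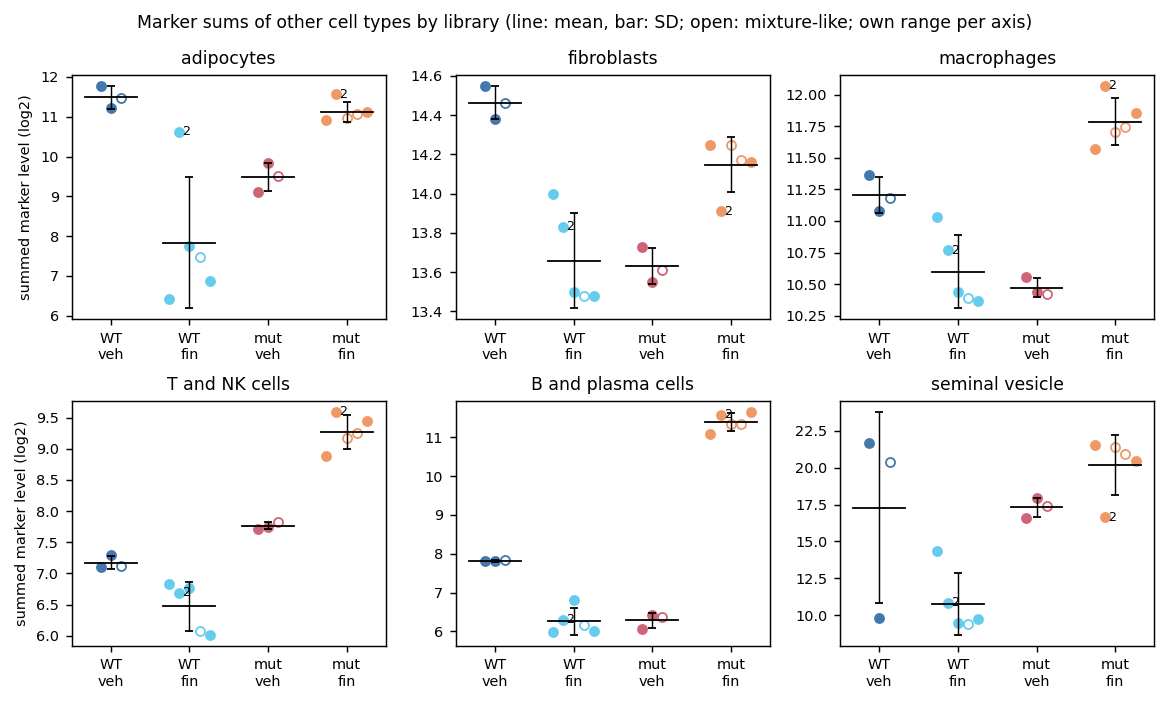
Summed markers (log2, vertical axes, each with its own range) of 6 other cell types or tissues in the 16 libraries by group, with lines for group means, bars for SDs, open points for mixture-like libraries and the digit 2 for library 2 of the finasteride groups. Macrophage, T and NK, and B and plasma cell sums are highest in mutant libraries on finasteride, and adipocyte sums are lowest in wild type libraries on finasteride, apart from library 2 at 10.62.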

How the data were processed

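RNA of whole mouse prostate was sequenced in 16 libraries. The deposited table holds 1 normalized log2 value per gene and library, made by the authors. Per the submitters' processing notes, build mm9 and the tools DESeq, DESeq2, TopHat, Cufflinks and CASAVA (1.8.2) were used, without their roles. That the log base is 2 was inferred from totals of values taken out of log2. Read depth is unknown, so no counting errors are given, and the number of libraries and their spread set the precision. Of the columns, 0 were left unused. The targeted gene and some genes that the naming rule gives are not reported here.

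Values were taken out of log2, and genes whose mean then reached 10 were tested with limma 3.58.1 in R 4.3.3, as means of 4 groups with 1 spread per gene and a trend in its prior, without covariates. Contrasts were genotype on each treatment, finasteride in each genotype and their difference (the interaction). The Benjamini-Hochberg method adjusted p over 16895 genes, with a threshold of 0.05, and errors are moderated standard errors. The script was tested on simulated data. Mixture-like libraries had both weights over 0.2 and a residual under 0.1 over genes with log2 values of at least 8. Alternatives were other scalings, filters (none, or a mean of at least 50), a pseudocount of 8, no trend, only the groups compared, 11 libraries and each library left out. Marker sums add values taken out of log2. Python 3.11.15 with pandas 2.3.3 made the other tables.

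The members, gene lists, tests and alternatives were chosen with earlier results of these data known. Named genes are all members, up to 3 pathway genes past the threshold with the lowest p per role and comparison, the 3 genes most like each member (Pearson r, predicted models left out) and the most abundant marker of a list; other pathway genes named were chosen after their values were seen. RefSeq promoter windows are on GRCm38.p6, not the authors' mm9, and bear on no measured coordinate.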

Additional observations from a re-analysis of the deposited data

Results flagged for a closer look

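In 3 groups of 5 libraries, the lowest library stood apart from the other 4 by Dixon's test. Prlr was 12.31 in library 1 of wild type on finasteride, beside 12.74 to 12.90 in the others. Ghr was 8.58 in library 2 of mutant on finasteride, beside 9.0 to 9.13. Stat5a was 12.62 in library 2 of wild type on finasteride, beside 13.39 to 13.68. Chance flags about 1 in 20 groups, and 20 groups were looked at.

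For 5 of the 10 genes the finasteride effect in mutant prostate differed from that in wild type prostate by the interaction test in limma. The differences, mutant minus wild type, were 1.64 for Ghr, -0.90 for Stat5a, -1.53 for Socs2, 2.13 for Socs3 and 0.95 for Bcl2l1. For Ghr, Socs2, Socs3 and Bcl2l1 the separate effects passed in opposite directions over 16 libraries. Over the 11 libraries that leave out the mixture-like ones, none of these 4 kept both calls in the limma fit. Ghr lost both (adjusted p = 0.0952 in wild type and 0.111 in mutant), as did Bcl2l1 (0.0624 and 0.0783), Socs2 passed in wild type alone (0.0363, beside 0.122 in mutant) and Socs3 in mutant alone (0.00578, beside 0.0759 in wild type). For Stat5a neither separate effect passed over 16 libraries (adjusted p = 0.119 in wild type and 0.154 in mutant).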

How the results depend on the processing

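Leaving out the 5 mixture-like libraries lost many calls. Of the 10 genes, 3 in place of 6 then passed for genotype on vehicle, 1 in place of 6 for finasteride in wild type and 3 in place of 6 for finasteride in mutant. Of the 57 tested pathway genes, 8 in place of 20, 4 in place of 30, 17 in place of 36 and 22 in place of 40 (the difference of effects) passed. That fit has 11 libraries in place of 16; the cause was not tested further. With 1 library left out at a time, 3 to 5 of the 10 genes passed for genotype on vehicle, with 3 when library 3 of mutant on vehicle was out, and 17 to 31 pathway genes passed for finasteride in wild type. The other counts moved by at most 1.5 times under every alternative run.

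The sign of some values turned. Under quantile normalisation the log2 change was -0.052 for Bcl2l1 (genotype on vehicle), 0.0053 for Jak2 and 0.146 for Stat5b (finasteride in mutant), -0.211 for Socs1 (genotype on finasteride), and 0.066 for Prlr, 0.053 for Stat5b and -0.673 for Socs1 (difference of effects). With equal totals it was 0.095 for Jak2 and 0.245 for Stat5b (finasteride in mutant), 0.0048 for Prlr and 0.030 for Stat5a (genotype on finasteride), and 0.111 for Prlr, 0.191 for Stat5b and 0.298 for Cish (difference of effects). With equal medians Ghr was -0.025 (genotype on finasteride) and Jak2 -0.066 (difference of effects). Over 11 libraries Ghr was -0.016 (genotype on finasteride) and Cish 0.031 (difference of effects). With 1 library left out, Bcl2l1 ranged from -0.021 to 0.069 (genotype on vehicle), Stat5b from -0.075 to 0.027 (finasteride in mutant) and Cish from -0.274 to 0.116 (difference of effects). The cause was not tested.

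No paired analysis was possible because the running numbers in the titles pair no samples across groups. Whether the log2 values were shrunken at low expression, where Socs1 and Socs3 lie, was not tested. Leaving out library 2 of a finasteride group brought Stat5a and Cish past the threshold for the finasteride effect in that genotype. Read depth is unknown, so depth limits cannot be stated.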
